A study of Sus scrofa with 6 samples.

Results

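The respiratory chain subunits are nuclear genes that encode parts of the 4 electron transfer complexes and of ATP synthase in the mitochondrial inner membrane. They were taken here by name, as every gene whose symbol begins with NDUF, UQCR, ATP5, COX and a digit, or SDH and a letter from A to D, which also takes in the assembly factor SDHAF2. The rule found 65 genes, measured by 84 probe sets, among the 6567 genes that the array names by a single symbol. By name, 33 encode complex I, 4 complex II, 2 complex III, 7 complex IV and 13 ATP synthase. The other 6 are assembly factors or other genes that the names take in. NDUFA4 is kept in complex I by its symbol, though it is now counted with complex IV. For the 16 genes with several probe sets the brightest stood for the gene, and 49 genes had 1 probe set.

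RNA came from sows, as 1 Affymetrix array each for ovary and for uterine tissue labelled myometrium at 3 stages: non-pregnant (NP), early pregnant (EP) and late pregnant (LP). The study took 9 pigs, 3 per stage. The sources used here do not give the breed, age or day of pregnancy, nor whether an array held RNA of 1 animal or of several combined. Each tissue and stage therefore had 1 array and no replicate, so a difference between 2 stages in a tissue has no error of its own.

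Complex I takes electrons from NADH and complex II takes them from succinate, and complex II is at the same time an enzyme of the citric acid cycle. Both pass them through ubiquinone to complex III and then by cytochrome c to complex IV, which reduces oxygen. The protons pumped on the way drive ATP synthase. Mitochondria also hold the first step of steroid synthesis, which the corpus luteum of the ovary carries out at a high rate in pregnancy, and the contracting muscle of the uterus uses the ATP they make. The subunits that mitochondrial DNA itself encodes are not among these members.

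The arrays were alike in coverage, with 57.4% to 61.6% of probe sets above a floor of 81.7, which is the 40th percentile of all signals. Controls added at hybridisation were 0.47 higher on the NP ovary array than the 6-array mean (log2), and differed from it by -0.23 to 0.06 elsewhere. The poly-A controls, a second set, spread wider. Against their own 6-array mean they stood at 0.51, 0.10 and -0.28 on the NP, EP and LP ovary arrays. On the uterine arrays, in that order, they stood at -0.15, -0.42 and 0.24. The GAPDH control's 3' to 5' signal ratio, which goes up as RNA breaks down or is copied less fully, was 2.33 on the NP ovary array, 1.99 on the EP ovary array and 1.51 to 1.70 on the others. The actin control's ratio ranked the arrays otherwise. It was 3.38, 2.56 and 3.22 on the NP, EP and LP ovary arrays. On the uterine arrays it was 3.485, 2.64 and 2.76, and the NP one was the highest of all. The tissue label was set against marker genes. All 5 epithelial markers (EPCAM, CDH1, KRT8, KRT18 and KRT19) passed as higher on the arrays labelled myometrium (limma adjusted p under 0.05), where their summed signal was 30083 to 41145, against 589 to 922 in ovary. The 4 smooth muscle markers measured (ACTA2, DES, CNN1 and TAGLN) summed to 9988 to 18132 there, below the 22609 to 32138 of ovary. These arrays thus carried much epithelial RNA, and smooth muscle genes were not enriched in them. In whole tissue, fewer cells of a type and less RNA per cell cannot be told apart.

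The respiratory chain was expressed in every sample. Of the 65 members, 64 lay above the floor on all 6 arrays, and the median over members of the mean signal was 3895, against 521 over all genes. A mean signal of 1000 or more was reached by 54 members (83.1%) and by 32.5% of all genes. Signals also varied little from array to array. In 52 members the highest of the 6 arrays was less than 2 times the lowest, which is 81.2% of the 64 and compares with 50% of the 4754 genes above the floor on all arrays. Among genes with a mean signal of 1000 or more the shares were 87% of members and 53.4% of all genes. Accessory subunit NDUFA4, now counted with complex IV, is an example: its signal was 12359, 10616 and 13280 on the NP, EP and LP ovary arrays and 12201, 12279 and 12111 on the uterine ones. COX7C, a small structural subunit of complex IV, read 18296, 14832 and 17891 in ovary and 18585, 18225 and 17570 in the uterine tissue. In both genes the EP ovary array was the lowest of the 6.

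**Figure D1:**
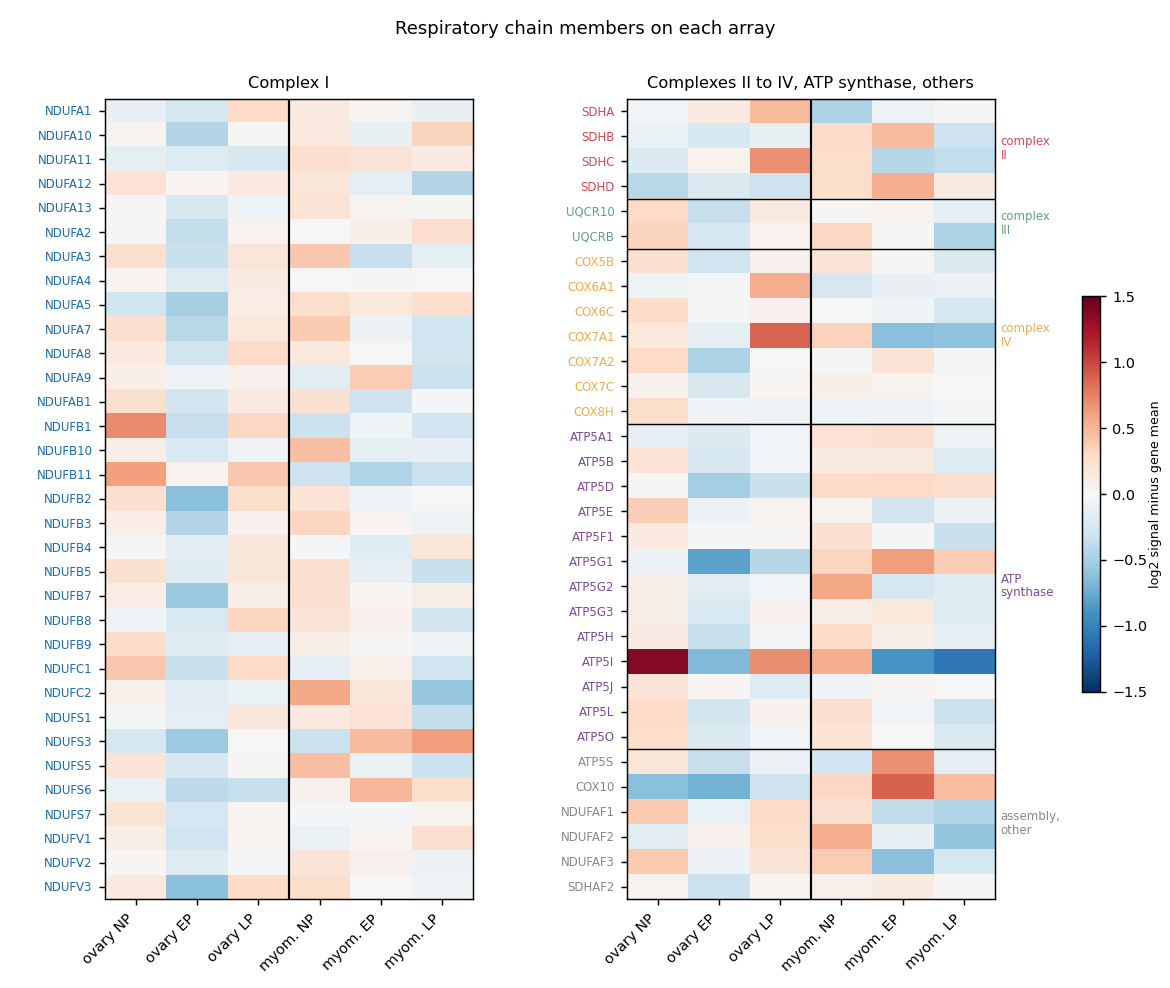
Signal of each of the 65 members on each of the 6 arrays (columns), as the log2 signal minus the gene's own mean over the arrays, by complex. Most rows stay close to white, the EP ovary column is blue in nearly all of complex I and ATP synthase, and ATP5I has the widest range.

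The first question was whether the ovary and the uterine tissue differ in these genes at all stages. No member passed the test in either direction. In limma's additive fit of tissue and stage, with Benjamini-Hochberg adjustment over 15882 probe sets and a threshold of 0.05, 0 of 65 members were higher in ovary, where 2.94% of the 5673 genes tested and 2.84% of all probe sets passed. Again 0 of 65 were lower, where 2.52% of genes and 2.23% of probe sets passed. At an unadjusted p under 0.05, 2 members were higher in ovary (11.8% of all genes) and 4 were lower (9.94%). The median member difference, ovary minus uterine, was -0.02 on the log2 scale and that of all genes 0.03. The 3 ovary signals all lay above the 3 uterine ones in 2 members, NDUFB11 and COX6A1, against 15.1% of all genes. They all lay below in 8 members, against 13.8% of all genes: NDUFS6, NDUFA5, NDUFA11, NDUFA13, SDHD, ATP5G1, ATP5D and COX10. The fit has 2 residual degrees of freedom, so a p that misses the threshold does not show that the tissues are alike.

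In complex I the members at the ends of the range were accessory subunits. NDUFB11, a subunit of the membrane arm, read 5037, 3417 and 4359 on the NP, EP and LP ovary arrays and 2649, 2398 and 2638 on the uterine arrays. Its lowest ovary signal was above its highest uterine one, and the fitted difference was 0.72 ± 0.19 (SE, 6 arrays; limma adjusted p = 0.102). NDUFS6, which sits at the zinc site of the matrix arm, read 614, 501 and 518 in ovary and 684, 929.5 and 789 in the uterine tissue. Its groups did not overlap either, and the difference was -0.55 ± 0.28 (limma adjusted p = 0.326), or -0.28 as the mean of its probe sets, of which the second is under the floor on all arrays. Complex II was split: the anchor subunit SDHD read 4178, 4782 and 4489.7 in ovary and 6704, 8092 and 6124 in the uterine tissue, a difference of -0.63 ± 0.17 (limma adjusted p = 0.104). The flavoprotein SDHA, the catalytic subunit of the same enzyme, lay the other way at 0.38 ± 0.19 (limma adjusted p = 0.316), and its groups overlapped.

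UQCRB and UQCR10, both small subunits of complex III, had differences of 0.10 and 0.05. In complex IV the lowest was COX7A2 at -0.11 and the highest COX7A1 at 0.59 ± 0.38 (limma adjusted p = 0.426). The COX7A1 value was 0.15 without the LP arrays and 0.98 without the NP arrays. COX6A1, whose groups did not overlap, lay at 0.30, with 12384, 12880.3 and 19021 in ovary and 10953.7, 12043 and 12242 in the uterine tissue. COX8H, the heart and muscle form of subunit 8, was the sole member under the floor on several arrays. It read 102.5, 44.4 and 41.4 in ovary and 11.2, 13.6 and 84.6 in the uterine tissue, so it passed the floor on 1 array of each tissue and its ratios are bounds set by the floor.

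Among ATP synthase genes, ATP5G1 is 1 of 3 genes that encode the same mature c subunit, the ring that turns as protons pass. ATP5G1 read 4787, 2902 and 3767 in ovary and 6357, 7859 and 6546 in the uterine tissue. All uterine signals were above all ovary ones, with a fitted difference of -0.88 ± 0.24 (limma adjusted p = 0.108). The other c-subunit genes did not separate the tissues: ATP5G2 differed by -0.08 and ATP5G3 by -0.04. ATP5D, the delta subunit of the central stalk, read 1905, 1321 and 1487 in ovary and 2269.6, 2317 and 2232 in the uterine tissue, a difference of -0.55 ± 0.22 (limma adjusted p = 0.225). ATP5I, subunit e of the membrane part, was highest of the complex at 0.94 ± 0.36 (limma adjusted p = 0.206), with overlapping groups. It was 0.52 without the LP arrays and 0.47 as the mean of its probe sets, of which the second is under the floor on all arrays.

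The widest tissue difference under the name rule belonged to an enzyme and not to a subunit. COX10 catalyses a step in the making of heme A for complex IV. It read 167, 157 and 207 in ovary and 318, 474.5 and 353 in the uterine tissue. Every uterine signal was higher, by 2.14-fold in the fit, or -1.10 ± 0.32 (limma adjusted p = 0.124). These signals are low, and with the floor at the 60th percentile the difference was -0.61. It was -0.55 as the mean of the gene's probe sets, of which the second is under the floor of 81.7 on all arrays. The highest of the assembly group was NDUFAF1, a complex I assembly factor, at 0.38 with overlapping groups.

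**Figure D2:**
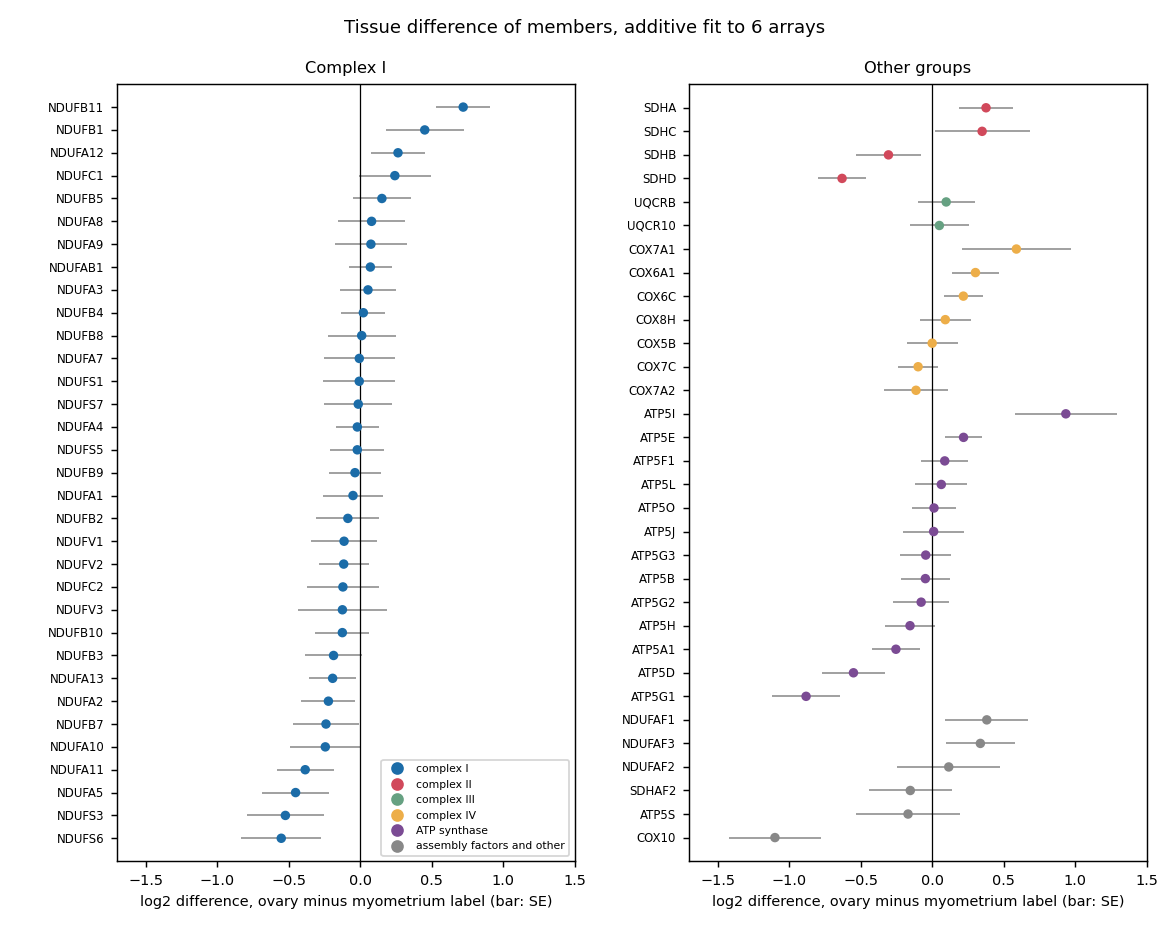
Fitted difference between ovary and the tissue labelled myometrium for each member (log2, points) with its SE (bars), complex I at left and the other groups at right. NDUFB11 and ATP5I lie farthest to the ovary side and COX10 and ATP5G1 farthest to the other, and no member passed the adjusted threshold.

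Stage was examined within each tissue without a test. In ovary, the EP array read lower than the NP array in 60 of 65 members, where 57.9% of all genes did. The median member ratio was -0.38 on the log2 scale and that of all genes -0.08. Among genes with a mean signal of 1000 or more, 50 of 54 members were below 0, against 57.9% of genes that bright, so the same held for bright genes. The step was small and broad. At 2-fold, 2 members were lower (2.47% of all genes, 2.15% of all probe sets) and 0 were higher (2.01% and 2.45%). At 1.5-fold, 10 were lower (10.1% of all genes) and 0 were higher (7.23%).

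On the LP ovary array most signals stood near the NP level. The LP to NP median was -0.08 against -0.06 for all genes, with 46 members below 0 (56.7% of all genes). At 2-fold, 0 members were lower (3.35% of genes, 3.65% of probe sets) and 0 were higher (2.8% and 2.92%). At 1.5-fold 1 was lower (11.5%) and 3 were higher (7.69%), namely ATP5I on the low side and SDHC, COX7A1 and COX6A1 on the high side. The LP to EP median was 0.34 against 0.03, with 3 of 64 members below 0 (47.5%). In that ratio 2 members were 2-fold or more higher (1.31% of genes, 1.5% of probe sets), ATP5I and COX7A1, and 0 were lower (2.37% and 2.71%). At 1.5-fold 10 were higher (7.07%) and 0 lower (8.27%). The EP array was the lowest of the 3 ovary arrays in 57 of the 64 members (89.1%) and in 37.7% of all genes. These 3 ratios share arrays and are not separate findings.

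Other measures moved with the ovary arrays. The NP array, against which the EP signals were low, had the highest hybridisation controls and GAPDH ratio given above, and its 28S ribosomal RNA control read 7783, against 5071 on the EP array and 3986 on the LP array. The 18S control did not follow it, at 3647 on NP, 5393 on EP and 1806 on LP. The actin ratio did not set NP apart from LP, at 3.38 on NP, 2.56 on EP and 3.22 on LP. The summed signal of 6 luteal and granulosa markers was 78286, 84771 and 92380.4 on the NP, EP and LP arrays. At EP the higher sum came from RLN2, which encodes relaxin (11028.8, 31899.6 and 29660.1), and from LHCGR, while the other 4 markers were below NP and the list's median was -0.18. Of these INHA, the inhibin alpha subunit, dipped at EP as the members did (6006, 2465 and 5803). Both macrophage markers measured, CD163 and AIF1, were below NP on the EP and LP arrays, with sums of 4546, 2289 and 2443. Of 4 smooth muscle markers, 2 were 2-fold or more higher at EP than at NP, CNN1 (546, 1746 and 563) and DES (193, 493.5 and 170.1), and the list's median was 0.82. The part of these in the EP ratios was not tested.

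**Figure D3:**
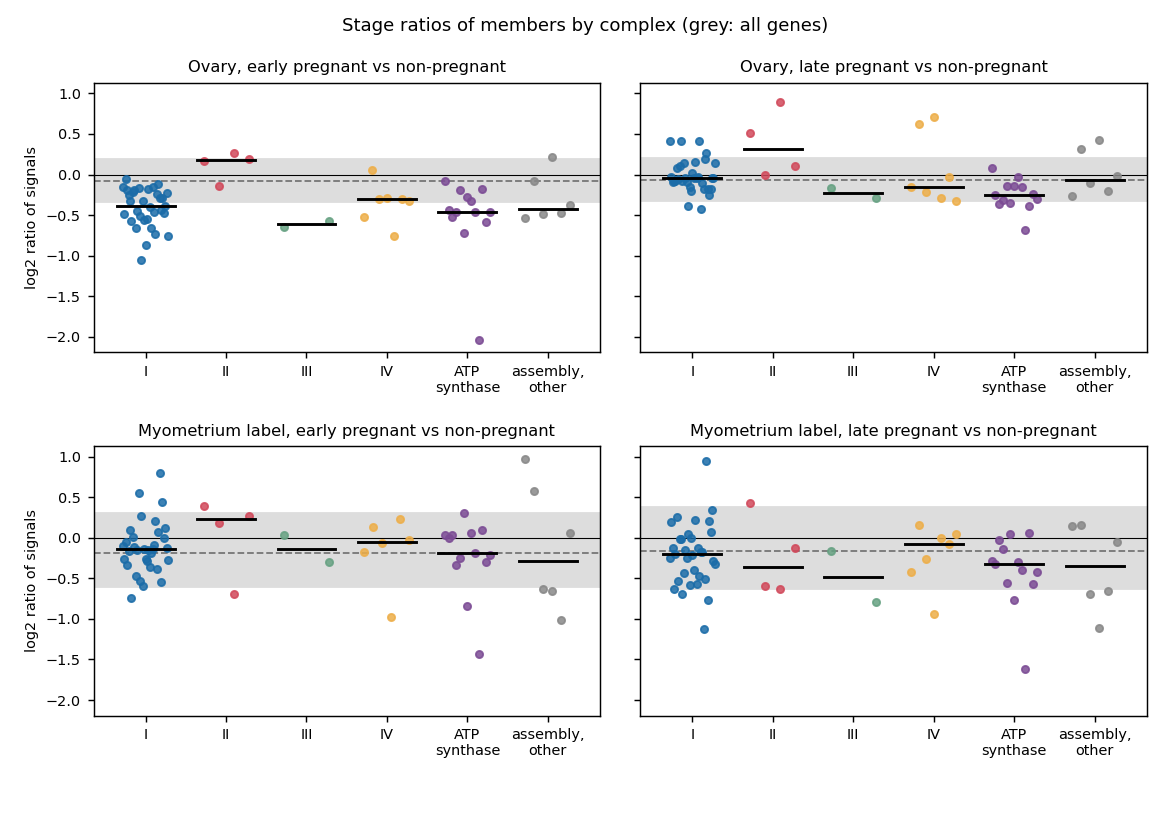
Log2 ratio of each member (points) between stages within each tissue, by complex, 1 array against 1, with the complex's median (black bar) and the median and quartiles of all genes (dashed line and grey band). In ovary nearly all EP to NP ratios lie below 0 and complex II lies above the other complexes, while the uterine ratios spread to both sides.

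By their brightest probe sets, every member of complex I, complex III and ATP synthase read lower on the EP ovary array. In complex II 1 of 4 did. In the 33 complex I members the median was -0.39, from NDUFB1 at -1.05 to NDUFA11 at -0.06. NDUFB1, a small accessory subunit of the membrane arm, read 11562, 5585 and 8828 on the NP, EP and LP ovary arrays. The EP signal was 2.07-fold below the NP signal, and the uterine arrays, at 5648, 6783 and 5815, had no such dip. NDUFB2, another subunit of that arm, read 5528, 3030.5 and 5624 in ovary, and returned to its NP level. NDUFC1, also in the membrane arm, read 6032, 3628 and 5599. NDUFV3, an accessory of the NADH-binding module, had the same form at a lower signal: 209, 124 and 230.1. Of the core subunits, NDUFS1, the large iron-sulfur protein, had an EP to NP ratio of -0.12, and NDUFV1, which binds NADH, one of -0.39.

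Complex II had the highest median of the groups in ovary, at 0.18 for EP to NP. SDHA read 2956, 3324.5 and 4229 on the NP, EP and LP arrays, so LP was 1.43-fold above NP. SDHC, an anchor subunit that helps bind ubiquinone, read 1467, 1759 and 2722, which is 1.86-fold. SDHD read 4178, 4782 and 4489.7, with EP the highest. SDHB, the iron-sulfur subunit, was flat at 4832, 4379 and 4796, with an EP to NP ratio of -0.14. With 4 genes and 1 array a stage, the difference between complex II and the rest was not tested.

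Both complex III genes had the common dip. UQCR10 read 6826, 4359.9 and 6081 in ovary, an EP to NP ratio of -0.65, and UQCRB read 9784, 6571 and 8002, a ratio of -0.57. In complex IV, 6 of 7 genes were below 0 with a median of -0.30, among them COX8H, whose EP signal was under the floor. COX7A2, the widely expressed form of subunit 7a, read 12864, 7619 and 10489, the largest step of the complex at -0.76. COX5B, which holds a zinc site, read 10999.6, 7639.6 and 9850.0. COX6A1, the widely expressed form of subunit 6a, was the exception: it read 12384, 12880.3 and 19021, so EP equalled NP within 0.06 and LP was 1.54-fold above NP.

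All 13 ATP synthase genes read lower on the EP ovary array by their brightest probe sets, with a median of -0.46. A second ATP5L probe set, given below, did not. ATP5I had the largest step of any member: 2091, 508 and 1302 on the NP, EP and LP ovary arrays, or 4.11-fold lower at EP than at NP. Its LP signal lay between the other arrays. A second ATP5I probe set was under the floor on all 6 arrays, at 4.7 to 14.7, so the step rests on 1 probe set. As the mean of both, with the second at the floor, the EP to NP ratio was -1.02. ATP5G1 (-0.72) and ATP5D (-0.53) followed the same course. Of the catalytic head, the beta subunit ATP5B read 10674, 7867 and 8989.9 and the alpha subunit ATP5A1 read 9334, 8849.7 and 9892. ATP5A1 thus had the smallest step of the complex, at -0.08, beside -0.44 for its partner ATP5B.

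Of the 6 assembly factors and others, 5 were below 0, with a median of -0.43. ATP5S, also known as factor B, was lowest at -0.53, from 785 at NP to 542 at EP. NDUFAF2, which acts late in complex I assembly, was above 0: it read 618, 719 and 830.0, an EP to NP ratio of 0.22 and an LP to NP ratio of 0.42. The 5 members above 0 in ovary at EP were thus SDHA, SDHC, SDHD, COX6A1 and NDUFAF2.

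**Figure D4:**
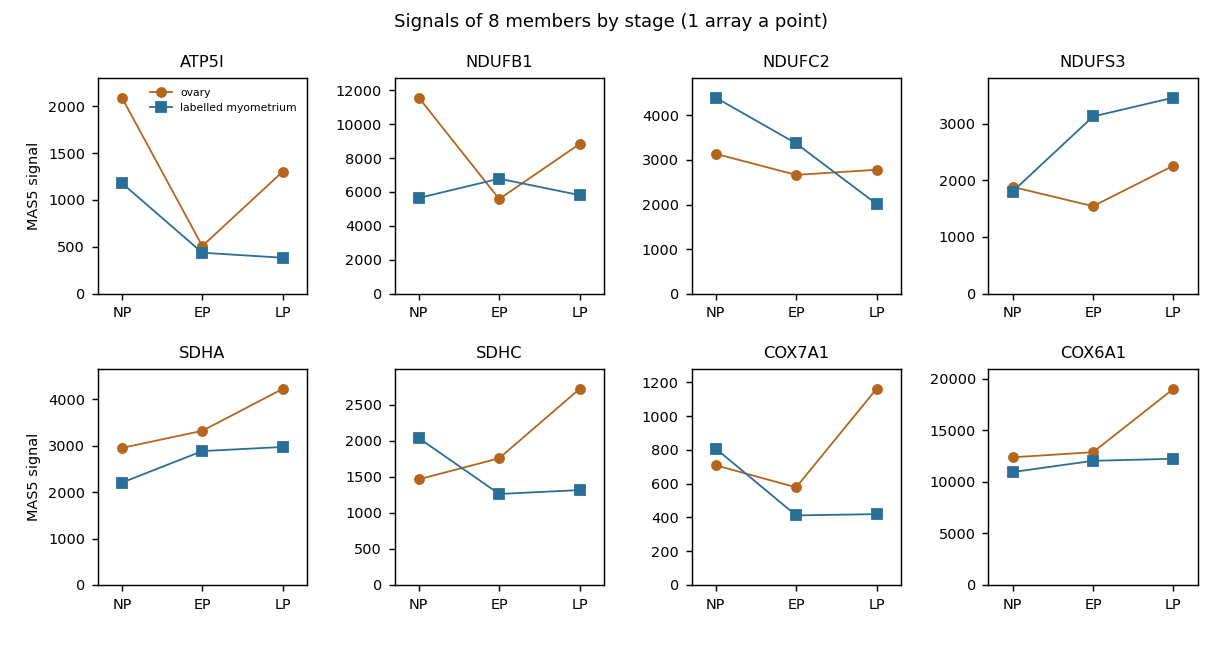
Deposited signal of 8 members on each array by stage, with ovary and the tissue labelled myometrium as separate lines and 1 array a point. ATP5I is lower on both pregnant arrays in each tissue, while SDHC and COX7A1 are higher on the LP ovary array and lower on the pregnant uterine arrays.

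In the uterine tissue the members lay nearer to the rest of the genes. The EP array read lower than the NP array in 39 of 64 members, against 60.6% of all genes, with a median of -0.13 against -0.19 for all genes. Centring each array on its median moved all genes from -0.19 to -0.04 and the members to 0.02, with 29 of 64 below 0. This scaling shifts every gene alike, so the members lay above all genes on both of these scales. The side of 0 they fell on depended on it. Under quantile normalization the members lay below all genes instead, at -0.19 against -0.14, with 46 of 64 below 0 against 57.59%. Among genes with a mean signal of 1000 or more, members and all genes both stood at -0.12. The place of the members beside all genes is thus unsettled here. At 2-fold, 2 members were lower (10.3% of genes, 10.3% of probe sets) and 0 were higher (9.18% and 8.76%). At 1.5-fold 9 were lower (26.1%) and 2 were higher (17%), ATP5S and NDUFS3.

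At LP, 50 of 65 members were below NP in the uterine tissue (58.6% of all genes), with a median of -0.25 against -0.16. Among genes with a mean signal of 1000 or more, 44 of 54 members were (58.1% of genes that bright). Under centring on the median the members stood at -0.14 and all genes at -0.06, so they lay below all genes on either scale. At 2-fold, 3 members were lower (13.2% of genes, 12.6% of probe sets), ATP5I, NDUFC2 and NDUFAF2, and 0 were higher (11.3% and 10.9%). At 1.5-fold 13 were lower (27.2%) and 1 was higher (18.9%), NDUFS3. The LP to EP median was -0.15, against -0.01 for all genes, with 44 members below 0 (50.4%). In that ratio 0 members were 2-fold or more lower (5.56% of genes, 5.62% of probe sets) and 0 were higher (5.72% and 5.87%), and at 1.5-fold 4 were lower (13.9%) and 0 higher (14.5%). The LP array was the lowest of the 3 uterine arrays in 38 of 64 members (59.4%) and in 37.9% of all genes.

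The uterine arrays also differed in their cell markers by stage. The luteal and granulosa list summed to 311 on the NP array and to 10475.5 and 13362 on the EP and LP arrays. These sums came from 3 of the 6 genes. STAR, which carries cholesterol into mitochondria, read 13.2 (under the floor), 5573 and 6907. CYP11A1, which cuts the cholesterol side chain there, read 22.1, 1502 and 4452, and HSD3B1, the next enzyme of steroid synthesis, read 64.1, 3101 and 1822. LHCGR was under the floor on all 3 arrays, and INHA and RLN2 stayed at 64.8 to 150.4. The epithelial list summed to 41145, 30083 and 38054, the smooth muscle list to 9988, 16818 and 18132, and the macrophage list to 2079.5, 6572 and 6209. The macrophage markers parted at EP: AIF1 read 1136.5, 6127 and 5016, and CD163 read 943, 444.8 and 1193. The part of these changes in the members' ratios was not tested.

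Complex I was uneven in the uterine tissue, with medians of -0.14 at EP and -0.20 at LP against NP. NDUFC2, a membrane-arm subunit, read 4396, 3369 and 2012 on the NP, EP and LP arrays, or 2.19-fold lower at LP than at NP. NDUFS3, a core subunit of the arm that carries electrons, went the other way: it read 1801, 3123.5 and 3456, or 1.92-fold higher at LP. In ovary neither gene showed this, with NDUFC2 at 3136, 2664 and 2779 and NDUFS3 at 1883, 1543 and 2258. NDUFA9 was highest on the EP uterine array, at 1623, 2385 and 1461. NDUFA3, an accessory subunit, was lowest there against NP, at 4236.5, 2532 and 2919.

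Complex II again held both directions. SDHA read 2207, 2888 and 2976 on the NP, EP and LP uterine arrays, so it was higher on both pregnant arrays in each tissue. SDHC read 2039, 1263 and 1318, lower on both pregnant arrays, whereas it was higher on both in ovary. SDHB read 6338, 7202 and 4193, and SDHD 6704, 8092 and 6124, both with EP the highest and LP the lowest. A second SDHB probe set read 2220.2, 1303.5 and 1263, which puts EP below NP and not above it, so the direction of SDHB at EP is unsettled.

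UQCRB read 9639, 7809 and 5568 on the uterine arrays, an LP to NP ratio of -0.79, while UQCR10 at 5631, 5764 and 5019 was near flat. In complex IV the widest uterine ratio was that of COX7A1, described with its isoform below. COX5B was next at LP with -0.42, and COX6A1 was the highest there with 0.16. In ATP synthase, ATP5I read 1179.8, 437 and 384, or 2.70-fold and 3.07-fold lower at EP and LP. ATP5G2 read 8866, 4948 and 5204, or 1.79-fold and 1.70-fold lower, whereas ATP5G1 at 6357, 7859 and 6546 and ATP5G3 at 11949, 12499.6 and 9750.6 did not share that step.

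By their brightest probe sets, the assembly factors of complex I read lower on the pregnant uterine arrays. NDUFAF3 read 1480.1, 735.5 and 941, which is 2.01-fold lower at EP. NDUFAF2 read 995, 633 and 459.9, or 2.16-fold lower at LP, and NDUFAF1 read 571, 370.0 and 352.5. A second NDUFAF1 probe set read 170.2, 185.3 and 146.7, so its EP signal was above NP and the direction of NDUFAF1 at EP is unsettled. The NDUFAF2 ratio at LP was -0.56 as the mean of its probe sets, of which the second is under the floor on all arrays. Its direction is the opposite of that in ovary, where LP was the highest array. ATP5S was highest at EP, at 566, 1113 and 625, and its second probe set had the same direction.

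The isoforms of subunit 7a had different courses in the tissues. COX7A1, the heart and muscle form of subunit 7a, read 709, 578 and 1162 on the NP, EP and LP ovary arrays. LP was 1.64-fold above NP and 2.01-fold above EP. On the uterine arrays it read 808, 412 and 419.8, 1.96-fold and 1.93-fold below NP at EP and LP. COX7A2, which fills the same place in the complex, read 10358, 12116 and 10349.9 there and so did not move with it. Its ovary course, given above, was a dip at EP with no rise at LP over NP. Of the markers of striated muscle and brown fat, 3 were named on the array (MYH7, CKM and ADIPOQ). Their summed signal was 148 to 388, with 1 of the 3 high enough to be tested. That gene was CKM, muscle creatine kinase, which read 107.6, 57.6 and 313.5 in ovary, highest at LP as COX7A1 was, and 116.3, 51.3 and 59.2 in the uterine tissue. ADIPOQ was under the floor on all 6 arrays and MYH7 on all but the NP ovary array, at 110.8. The part of such cells in the COX7A1 values was not tested.

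Across both tissues, stage was also tested in the additive fit, as a change shared by ovary and uterine tissue. None of the 65 members passed for EP against NP, LP against NP or LP against EP by limma, and 0% of genes did in each direction. At an unadjusted p under 0.05, EP against NP had 0 members higher (2.22% of all genes) and 5 lower (2.98%): ATP5I, NDUFA3, NDUFAB1, ATP5E and NDUFAF3. ATP5I had the widest shared difference, -1.74 at EP (limma unadjusted p = 0.00801) and -1.15 at LP, where it was the only member under 0.05 in that contrast (0 higher, 2.66% of genes, and 1 lower, 3.93%). For LP against EP there were 0 in each direction (0.617% higher and 1.27% lower). The median shared difference was -0.23 at EP and -0.15 at LP, against -0.13 and -0.12 for all genes. Of 64 members, 37 were lower in both tissues at EP and 3 higher in both, 22 were lower in ovary alone and 2 lower in the uterine tissue alone. At LP the counts were 37, 6, 8 and 13. Over the 4754 genes above the floor on all arrays the counts, in the same order, were 1879, 928, 897 and 1050 at EP and 1671, 932, 979 and 1169 at LP. The 3 contrasts share arrays.

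Further probe sets of the same genes show how far a single one can be trusted. Of 19 further probe sets, 10 lay above the floor on all arrays. In the ovary EP to NP ratio 9 of these 10 had the sign of the brightest, and in the uterine EP to NP ratio 4 of 10 did. The exception in ovary was the second ATP5L probe set. It read 276.5, 346.8 and 328.6 in ovary and 239.1, 428.3 and 244 in the uterine tissue. The brightest ATP5L probe set read 10150, 6790 and 8631 in ovary and 9825, 8020 and 6604 in the uterine tissue. The direction of ATP5L at EP is thus unsettled in both tissues. NDUFA1, a short membrane-arm subunit, had the widest disagreement. Its brightest probe set read 5733, 5151 and 7621 in ovary and 6826, 6372 and 5737 in the uterine tissue. Its other probe set read 391, 265 and 571 in ovary and 18937, 919 and 3026 in the uterine tissue, so 1 array, the NP uterine one, carried most of that signal. NDUFS3 had 3 probe sets: the second was also higher on both pregnant uterine arrays than on NP (478, 833 and 696), and the third was lower (449, 236.0 and 263).

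Other genes of the mitochondrion give the setting. In the tissue fit the called genes among them were few. Of 6 electron carriers tested 1 was higher in ovary. This was FDXR, part of the path that passes electrons to the enzymes of steroid synthesis (2.57 on the log2 scale, limma adjusted p = 0.0231). Of 8 carriers and channels 1 was higher in the uterine tissue, the ADP and ATP carrier SLC25A5 (-1.08, limma adjusted p = 0.0274), and of 14 glycolysis genes 1 was higher in ovary. None was called among 16 genes of the citric acid cycle and pyruvate dehydrogenase, 58 of the mitochondrial ribosome, 6 of mitochondrial DNA upkeep, 7 assembly factors outside the name rule, or 8 that remove peroxide and superoxide.

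Other gene lists had the ovary EP step too, beside the 57.9% of all genes below 0. The mitochondrial ribosome had an EP to NP median of -0.38 with 55 of 58 genes below 0, the same size as the chain. The medians were -0.46 for mitochondrial DNA upkeep (4 of 5 below 0), -0.33 for outside assembly factors (6 of 7), -0.32 for carriers and channels (7 of 8) and -0.31 for glycolysis (12 of 14). Electron carriers had -0.26 (4 of 6), the citric acid cycle -0.09 (11 of 16) and peroxide removal 0.06 (4 of 8). Outside the mitochondrion, 63 of 63 cytosolic ribosome genes were below 0 with a median of -0.28, and 31 of 33 proteasome genes with a median of -0.37. These last lists were added after the members' values had been seen. The citric acid cycle thus lay near the median of all genes, -0.08, and nearer to 0 than complexes I, III and IV. Complex II, which also belongs to that cycle, lay above it at 0.18.

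In the uterine tissue at EP the mitochondrial ribosome stood at -0.41 (50 of 58 below 0), the cytosolic ribosome at -0.37 (63 of 63) and the proteasome at -0.29 (28 of 33), all lower than the chain's -0.13. Electron carriers, at 0.46, and the citric acid cycle, at 0.09, lay above it. The electron carriers were uneven: FDX1, FDXR and CYCS stood at 0.96, 0.81 and 0.75, ETFDH and ETFA at 0.16 and 0.06, and ETFB at -0.33. At LP the lists parted. In ovary the mitochondrial ribosome stood at -0.11 and the proteasome at -0.11 against NP, near the members' -0.08, and the cytosolic ribosome stayed at -0.38 with 63 of 63 genes below 0. In the uterine tissue at LP the mitochondrial ribosome was lower than the chain, at -0.56 with 50 of 58 genes below 0 and 9 of them 2-fold or more, and mitochondrial DNA upkeep stood at -0.82 over 5 genes. In that list 3 genes were below 0, TFAM, TFB1M and SSBP1, and PPRC1 and YY1 lay at 0.01. SSBP1, which coats single-stranded mitochondrial DNA, read 3893, 2063 and 1790.2 on the NP, EP and LP uterine arrays. The proteasome was at -0.38 (29 of 33 below 0) and the cytosolic ribosome at -0.44 (63 of 63). The citric acid cycle at -0.09, outside assembly factors at -0.07, electron carriers at -0.06, carriers and channels at -0.17, peroxide removal at -0.04 and glycolysis at -0.02 lay closer to 0 than the chain's -0.25. Median centring, which moves all genes from -0.16 to -0.06 there, would turn the sign of those nearest to 0.

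**Figure D5:**
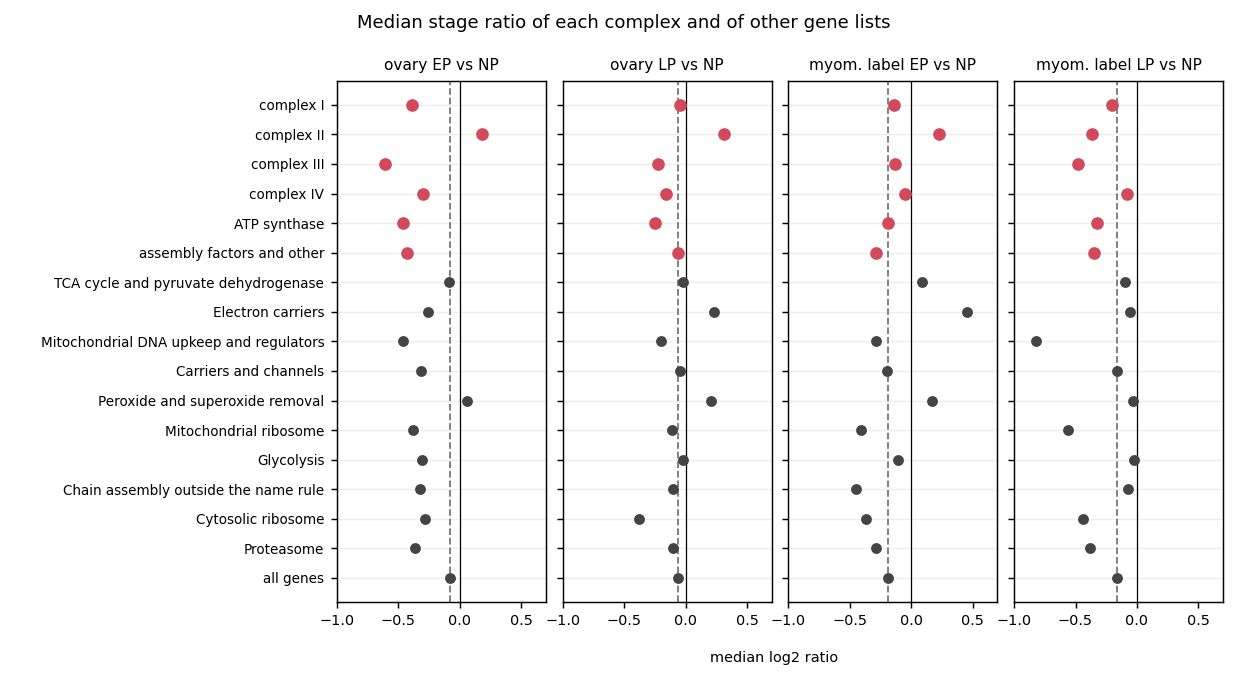
Median log2 ratio against NP, within each tissue, of each complex (red points), of other gene lists (dark points) and of all genes (dashed line), 1 array against 1. At EP in ovary the groups other than complex II lie below all genes. Complexes I and IV lie beside the ribosomal and proteasome lists there, and complex III, ATP synthase and the assembly group lie lower than those lists. At LP in the uterine tissue the lists of mitochondrial ribosome and DNA upkeep lie below every complex.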

How the data were processed

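The deposited values are probe set intensity values on a linear scale from 6 Affymetrix porcine arrays. The authors made them with MAS5, per the submitters' processing notes, which name no version. Per the labels' protocols, 6 ug of Trizol-extracted total RNA was made into biotin-labelled cRNA. All arrays share a 2% trimmed mean signal of 500.1, which means they were scaled alike, and total RNA cannot be compared.

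Of 24123 probe sets, 124 controls were left out. Symbols came from the platform's annotation, and all 65 members' symbols equal the current RefSeq record of their gene identifier. A further 5 probe sets whose several symbols include such a name were left out. Signals under the floor of 81.7 were raised to it before log2, which understates changes of dim genes.

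Tissue and shared stage differences came from limma 3.58.1 in R 4.3.3, with tissue and stage as terms and an intensity trend. It was run on the 15882 probe sets that passed the floor on 2 or more arrays, with Benjamini-Hochberg adjustment at 0.05, and was tested on simulated data. The simulated tissue differences were larger than that of any member. That check therefore does not show how often differences of the members' size would be found. The 2 residual degrees of freedom hold noise and tissue-specific stage effects, so p-values measure how well arrays, not animals, agree. Within a tissue, a stage ratio is 1 array over 1, among members that passed the floor on either, with no test.

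The members, lists and named genes were chosen with earlier results of these data known. Named with values were, per complex, the highest and lowest members of a comparison, members at 2-fold and isoform sets. Genes whose probe sets disagree in direction by over 1 log2 were named too. Others were added as examples after their values were seen. Alternatives tried were the 25th (33.7) and 60th (246.2) percentile as floor, a pseudocount of 16, quantile normalization, median centring, no filter, no trend, no stage term, leaving out each stage, averaging a gene's probe sets or taking the next one, and 1.5-fold. A limit to mean signals of 1000 or more was chosen after seeing the data. Gene positions and sequences were not analysed here.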

Additional observations from a re-analysis of the deposited data

Results flagged for a closer look

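SDHC had opposite directions in the tissues: its late to non-pregnant log2 ratio was 0.89 in ovary and -0.63 in the tissue labelled myometrium. COX7A1, the muscle form of subunit 7a, did likewise, at 0.71 in ovary and -0.95 in the uterine tissue. In each case both sides of a ratio are 1 array, and the difference between tissues was not tested. SDHC and COX7A1 were singled out among all members because the ratios passed 1.5-fold in both tissues.

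The second probe set of NDUFA1, which does not enter the members' values, read 18937 on the non-pregnant array labelled myometrium and 265 to 3026 on the other 5 arrays. The brightest NDUFA1 probe set read 5151 to 7621 on the same arrays.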

How the results depend on the processing

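No alternative gave a member that passed the tissue or shared stage test. Of the main counts and medians, 244 alternative values kept their size and direction, 27 moved and 1 reversed. The reversed value was the uterine early to non-pregnant median, 0.0177 under median centring, which shifts every gene alike and also moved the late one from -0.25 to -0.14. A fold of 1.5 gave 10 members lower at early pregnancy in ovary and 10 higher from early to late. It gave 1 lower and 3 higher from non-pregnant to late in ovary, 9 lower and 2 higher at early and 13 lower and 1 higher at late pregnancy in the uterine tissue, and 4 lower from early to late there. The uterine counts of members below 0 shifted by more. At early pregnancy 39 of 64 became 46 under quantile normalization and 29 under median centring. At late pregnancy 50 of 65 became 43 under median centring. The moves that follow were of 1 or 2 members. Quantile normalization left 1 member lower at early pregnancy in ovary, gave 1 higher in the uterine tissue at early pregnancy and 5 members below 0 from early to late in ovary, as did the next probe set. The pseudocount left 1 higher from early to late in ovary, as did the mean of probe sets, and 1 lower at early pregnancy in the uterine tissue, as did median centring, which also gave 1 higher there. The 25th percentile floor and the pseudocount each gave 1 lower at late pregnancy in ovary, and 1 higher at late pregnancy and from early to late in the uterine tissue. Median centring also gave 1 higher at late uterine pregnancy, and the next probe set 1 higher from early to late. The cause of these moves was not tested. The tissue test pairs the arrays by stage through its stage term, and without that term 0 members passed as well. The labels give no replicate numbers. The number of arrays limits the precision throughout.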
